A study of Brassica napus with 24 samples.

Results

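The transcripts described here are 5 probes on a Brassica napus microarray whose best Arabidopsis matches in the study's annotation are plasma membrane proton ATPases. They are HA1 (AT2G18960, probe A_46_P278503), HA3 (AT5G57350, A_46_P281808), HA6 (AT2G07560, A_46_P298605), HA8 (AT3G42640, A_46_P182774) and HA9 (AT1G80660, A_46_P012646). The array holds 43603 probes, but the study annotated only its 1501 changed transcripts. Other probes of the family may therefore be among the rest. The samples came from rapeseed cultivar Zhongshuang No. 9, in which male sterility had been induced with monosulfuron ester sodium (MES), a sulfonylurea used as a chemical hybridization agent. MES-treated plants had been sprayed with 0.1 μg/mL MES, at about 15 mL per plant, in a carrier with DMF (50 ppm) and Tween 80 (5 ppm), and mock-treated plants with the carrier alone. Ls are young leaves, SBs are buds shorter than 1 mm, An-MBs are anthers of buds between 1 mm and 3 mm, and An-LBs are anthers of buds longer than 3 mm. Every tissue (organ) of either treatment was hybridized as 3 biological replicates, each a mixture from 20 rows of plants, which gave 8 groups and 24 one-colour arrays.

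Plasma membrane proton ATPases are P-type pumps that use ATP to move H+ out of the cell. The gradient they build energizes the uptake of sugars, amino acids, nitrate, peptides and ions by H+-coupled carriers and lowers the pH of the cell wall. Their activity is set by a regulatory C-terminal region, to which 14-3-3 proteins bind after phosphorylation. In Arabidopsis, AHA1 is expressed throughout the plant and acts in guard cells, AHA3 is known from phloem companion cells and the male gametophyte, and AHA6, AHA8 and AHA9 are known mainly from pollen and anthers.

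The study designed quantitative PCR primers for 2 of these transcripts, HA3 and HA9. They are shown because they are the only stretches of the members' sequences in the sources used here, each written 5′ to 3′.
HA3 forward: agtggtgccttctcctac
HA3 reverse: ttcattgcctctcaagtctc
HA9 forward: gagatcaatcagtggcaatcc
HA9 reverse: acagcaatgacagtagcaatc
The primers run from 18 to 21 bases, with 9 or 10 G or C bases in each.

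Values are log2 signals after quantile normalization over the 24 arrays, so a step of 1 is a change of 2-fold. Levels are compared between groups for 1 probe at a time, since probes differ in brightness at equal transcript level. Between 73.0% and 81.9% of probes were well above background on an array, by the scanner software's own call, and log2 signals of replicates correlated with r between 0.945 and 0.990 across probes, which are not independent replicates. Replicate 2 of MES-treated An-MBs stands apart from its group, with 0.945 and 0.954 against 0.989 between the other replicates. Mock-treated samples lay on slides 1 to 3 and MES-treated samples on slides 4 to 6, except replicate 2 of MES-treated An-LBs on slide 7. Slide and treatment therefore cannot be told apart. The array on slide 7 was also read on a day and a scanner that no other array had. On slides 1 to 6 each tissue kept the same array position, so tissue and position cannot be told apart there. A probe was called changed in a tissue at a limma adjusted p under 0.05 (Benjamini-Hochberg over all probes tested there) and a change of at least 2-fold, and was tested in a tissue where 3 or more of its 6 arrays had it well above background.

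The members had been chosen by measured values of these arrays: the study listed transcripts that differed between tissues and that MES moved at least 2-fold, at p up to 0.001, in An-LBs (HA1, HA6, HA8 and HA9), An-MBs (HA9) or Ls (HA3). Those 6 contrasts and the tissue levels are therefore given as a description, without p-values. Contrasts outside the listing had missed that threshold, so they are not wholly independent of it. The values closest to the fold limit were both those of HA1, with 2.14-fold in An-LBs just inside and 1.93-fold in Ls just outside.

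The members fell into a pair measured in every group and a set of 3 tied to anthers of mock-treated plants. HA1 and HA3 were well above background on all 24 arrays. HA6, HA8 and HA9 had their highest levels in mock-treated An-LBs, with no overlap with any other group, and all 3 were far lower in MES-treated An-LBs. HA1 was the only member with a higher mean in MES-treated than in mock-treated An-LBs. HA3 had its highest mean in mock-treated An-LBs too, but there its replicates overlapped those of other groups.

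**Figure D1:**
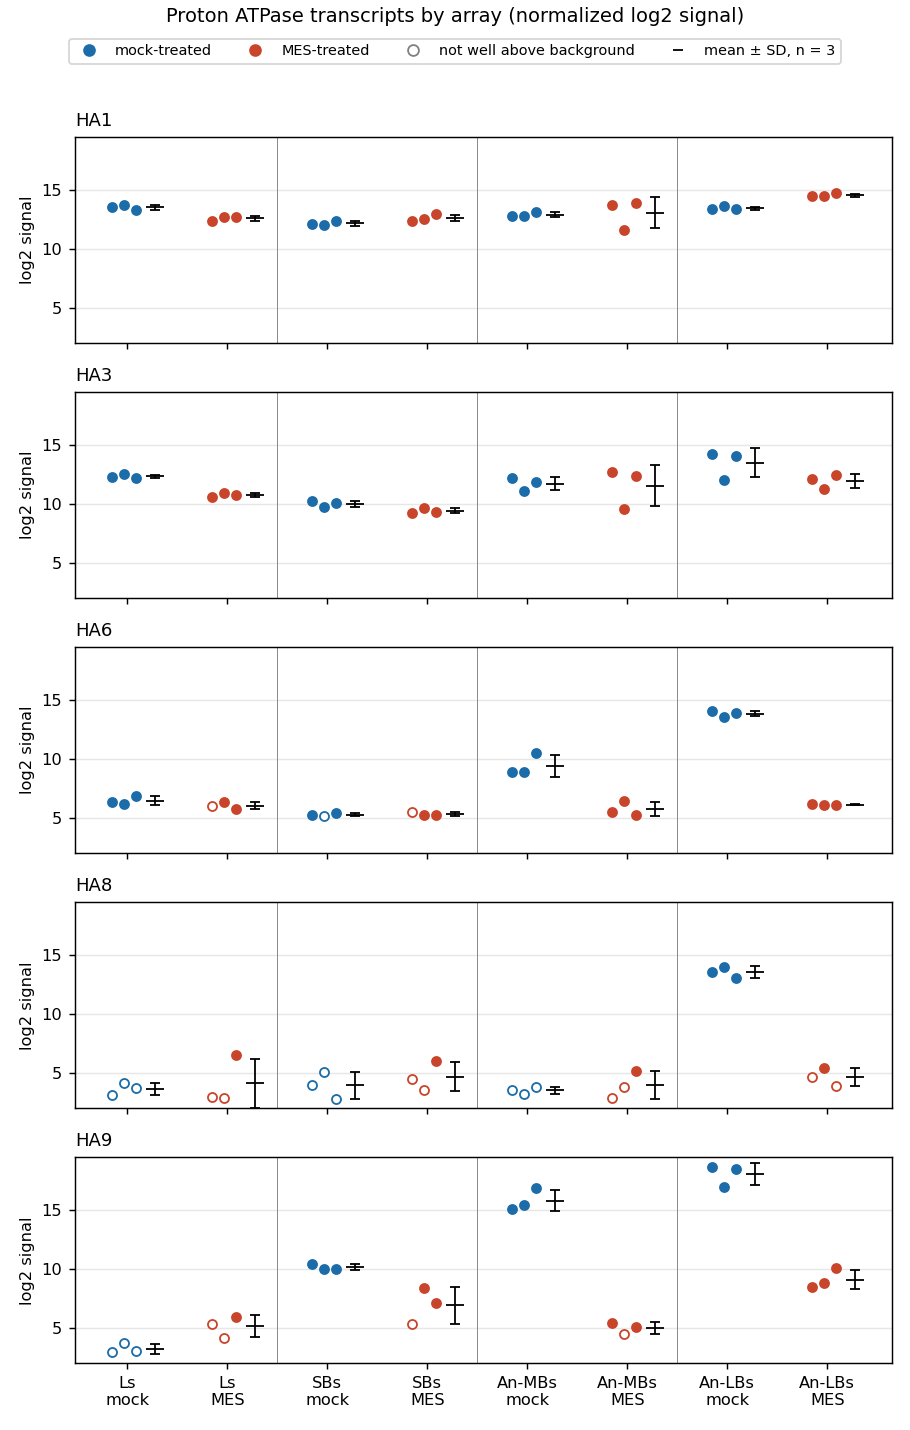
Normalized log2 signal (y axis) of the 5 transcripts in the 8 groups (x axis), with a point for each array, open where the probe was not well above background, and the mean ± SD (n = 3) beside the points. HA6, HA8 and HA9 stand at 13.85, 13.57 and 18.08 in mock-treated An-LBs and at 6.12, 4.64 and 9.12 in MES-treated An-LBs, while HA1 stays between 12.16 and 14.55 over the group means.

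HA1, the homologue of the broadly expressed Arabidopsis pump, varied least between tissues. In mock-treated plants, the replicates of Ls were at 13.53, 13.74 and 13.33, those of SBs at 12.12, 12 and 12.36, those of An-MBs at 12.81, 12.77 and 13.16, and those of An-LBs at 13.38, 13.61 and 13.35. Leaves and the oldest anthers overlapped, and SBs lay below both, with a mean lower by 1.38 than that of Ls and by 1.29 than that of An-LBs on the log2 scale. In MES-treated plants, Ls were at 12.37, 12.66 and 12.72, SBs at 12.39, 12.53 and 12.94, An-MBs at 13.74, 11.57 and 13.93, and An-LBs at 14.50, 14.45 and 14.70. All 3 MES-treated An-LBs arrays thus exceeded every other array of this probe, by a gap of 1.01 between the means of the first and the second group in the order, whereas the next groups down to MES-treated Ls overlapped their neighbours.

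The mean of HA1 was lower with MES in Ls and higher in the other organs. Groups without overlap were common on the array: of the probes tested, 56.3% had none in An-LBs, 37.5% in Ls, 32.4% in An-MBs and 28.4% in SBs. In Ls all 3 MES-treated arrays lay below the mock-treated ones, from a mean of 13.53 ± 0.21 to 12.58 ± 0.19 (SD, n = 3), a log2 difference of -0.95 ± 0.20 (SE). The adjusted p was 0.0497, but the change of 1.93-fold missed the fold limit, so HA1 was not called. With replicate number as a block, used since same-numbered arrays of Ls deviated together, the adjusted p was 0.0696. In SBs the mean went from 12.16 ± 0.19 to 12.62 ± 0.29, a log2 difference of 0.46 ± 0.20 (SE) with an adjusted p of 0.253, although the groups did not overlap. In An-MBs the groups overlapped, and the log2 difference of 0.17 ± 0.64 (SE) had an adjusted p of 0.904. That value rests on replicate 2 of the MES-treated group: without it the log2 difference was 0.93, with an adjusted p of 0.0278 but under 2-fold. In An-LBs the mean rose from 13.45 ± 0.14 to 14.55 ± 0.14, or 2.14-fold. With each array shifted to its 75th percentile the log2 difference there was 0.96, under the fold limit.

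HA3, whose Arabidopsis homologue is known from phloem companion cells and the male gametophyte, was present in all organs with larger steps between them. Its mock-treated replicates were at 12.26, 12.52 and 12.23 for Ls, at 10.21, 9.73 and 10.09 for SBs, at 12.21, 11.10 and 11.82 for An-MBs, and at 14.28, 12.06 and 14.10 for An-LBs. The mean of An-LBs exceeded that of SBs by 3.47 on the log2 scale, and Ls lay between them, 5.01-fold above SBs. Replicate 2 of mock-treated An-LBs was more than 2 log2 units under the other replicates and at the level of An-MBs. The MES-treated replicates were at 10.57, 10.91 and 10.79 for Ls, at 9.23, 9.66 and 9.35 for SBs, at 12.73, 9.54 and 12.34 for An-MBs, and at 12.10, 11.26 and 12.43 for An-LBs. SBs of either treatment were the lowest groups of HA3, without overlap with any other group except MES-treated An-MBs, whose replicate 2 lay at 9.54.

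In Ls, HA3 was lower in all 3 MES-treated arrays, from 12.34 ± 0.16 to 10.76 ± 0.17, or 2.99-fold. It was the only member called in Ls by the rule above, which called 4.82% of the 32491 probes tested there, and it is the contrast that put HA3 on the list. Without replicate 1 of the MES-treated Ls, or without any of the 3 mock-treated replicates, no member was called in Ls, and the log2 difference of HA3 stayed between -1.66 and -1.49. In SBs the log2 difference was -0.60 ± 0.20 (SE), without overlap but with an adjusted p of 0.151. In An-MBs the groups overlapped, at a log2 difference of -0.17 ± 0.86 (SE) and an adjusted p of 0.928. In An-LBs the mean went from 13.48 ± 1.23 to 11.93 ± 0.61, a log2 difference of -1.55 ± 0.65 (SE) that was not called, with an adjusted p of 0.104. The groups overlapped only through replicate 2 of the mock-treated anthers, and without that array the difference was -2.26 with an adjusted p of 0.00888. Over the 6 omissions of an array it ran from -2.26 to -1.15, with adjusted p-values up to 0.268.

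HA6, a homologue of an Arabidopsis pump of pollen, was near the background limit outside mock-treated anthers. With mock treatment, Ls gave 6.33, 6.20 and 6.89, SBs 5.25, 5.13 and 5.42, An-MBs 8.90, 8.86 and 10.50, and An-LBs 14.04, 13.60 and 13.91. The mean of An-MBs was 17.8-fold above SBs, and that of An-LBs a further 21.6-fold above An-MBs. With MES, Ls gave 6.03, 6.37 and 5.73, SBs 5.48, 5.26 and 5.25, An-MBs 5.52, 6.43 and 5.27, and An-LBs 6.17, 6.08 and 6.10. The 4 tissues of MES-treated plants had means between 5.33 and 6.12, and An-LBs exceeded SBs by 0.79 on the log2 scale, beside 8.58 in mock-treated plants.

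For HA6 the fall with MES was 213-fold in An-LBs, from 13.85 ± 0.23 to 6.12 ± 0.05, a log2 difference of -7.73 that was -6.57 with normexp background correction. In An-MBs, a contrast outside the listing, the mean fell from 9.42 ± 0.93 to 5.74 ± 0.61, a log2 difference of -3.68 ± 0.55 (SE) or 12.8-fold, and was called with an adjusted p of 0.0156. With normexp it was -2.44, at an adjusted p of 0.0187. All 3 MES-treated arrays lay below the mock-treated ones. Leaving out replicate 1 or 3 of the MES-treated or replicate 1 or 2 of the mock-treated An-MBs lifted the adjusted p above the threshold, to 0.0745 at most, with log2 differences between -4.02 and -3.14 over the 6 omissions. The log2 difference was -0.43 ± 0.27 (SE) in Ls, with an adjusted p of 0.326, and 0.06 ± 0.16 (SE) in SBs, with an adjusted p of 0.870.

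HA8, likewise a homologue of a pollen pump, was measured well above background in 1 group only. In mock-treated An-LBs its replicates were at 13.61, 14.04 and 13.05. In mock-treated Ls, SBs and An-MBs none of the 9 arrays was well above background, and the level in An-LBs was at least 213-fold, 373-fold and 500-fold higher than in those tissues. In MES-treated An-LBs the replicates were at 4.68, 5.38 and 3.86, of which only the second, the array on slide 7, was well above background. Against the mean of 13.57 ± 0.49 in mock-treated An-LBs, the log2 difference was -8.93 or 486-fold, and -6.81 with normexp. In each of the other MES-treated tissues only replicate 3, on slide 6, was well above background, where leaves gave 6.51, SBs 5.98 and An-MBs 5.21. HA8 was not tested in these 3 tissues.

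HA9, the third of the pollen and anther homologues, appeared earliest. In the mock-treated group, leaves were at 2.96, 3.74 and 3.04, SBs at 10.46, 10.01 and 10.01, An-MBs at 15.14, 15.47 and 16.86, and An-LBs at 18.71, 16.99 and 18.53. None of the leaf arrays was well above background, and the steps upward were at least 4.32 on the log2 scale from Ls to SBs, then 50.6-fold to An-MBs and 4.77-fold to An-LBs, with no overlap at any step. In the MES-treated group, leaves were at 5.37, 4.19 and 5.97, SBs at 5.31, 8.39 and 7.10, An-MBs at 5.44, 4.48 and 5.09, and An-LBs at 8.45, 8.85 and 10.06. An-LBs were thus highest among the MES-treated flower samples too, whereas the mean of An-MBs was below that of SBs. The replicates of An-MBs and SBs overlapped, however, and only 2 of 3 arrays were well above background in each of these groups.

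The fall of HA9 with MES was 1809-fold in An-MBs, from 15.82 ± 0.91 to 5.00 ± 0.49, with 2 of the 3 MES-treated arrays well above background. The log2 difference was -10.82, and -8.93 with normexp. In An-LBs the fall was 496-fold, from 18.08 ± 0.95 to 9.12 ± 0.84, with all 6 arrays well above background. Both contrasts are those of the listing. In SBs, outside the listing, all 3 MES-treated arrays were below the mock-treated ones, at means of 6.93 ± 1.54 and 10.16 ± 0.26. The log2 difference of -3.23 ± 0.73 (SE) had an adjusted p of 0.0603 and was not called. It ran from -3.96 to -2.42 over the 6 omissions of an array, with adjusted p-values from 0.0330 (without MES replicate 2) to 0.207 (without mock replicate 1), and the smallest difference came without MES replicate 1. With normexp it was -2.51, at an adjusted p of 0.0299. In Ls the MES-treated arrays were above the mock-treated ones, but only 1 of the 6 leaf arrays was well above background, so their order carries no measured difference.

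**Figure D2:**
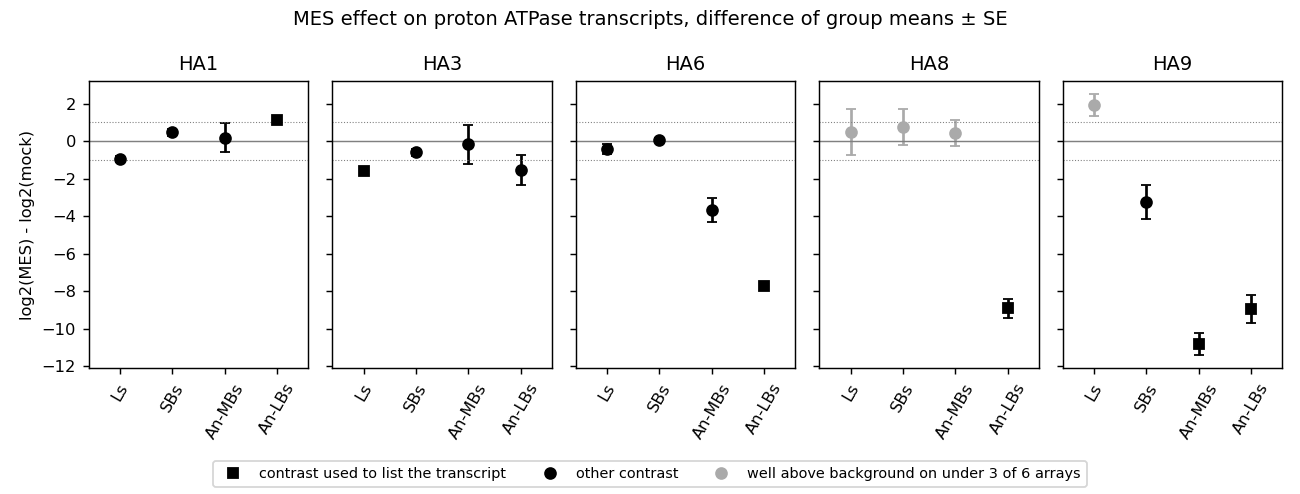
Difference of the log2 group means, MES-treated minus mock-treated (y axis), with its SE from the SDs of both groups (n = 3 each), for each transcript in the 4 tissues (x axis); squares mark the contrasts that listed the transcript, grey points those with fewer than 3 of 6 arrays well above background, and dotted lines 2-fold. The differences of HA6, HA8 and HA9 in An-LBs lie between -8.96 and -7.73, those of HA1 in all 4 tissues between -0.95 and 1.1.

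By the calling rule, An-LBs had 4 of 5 members called (HA1, HA6, HA8 and HA9), An-MBs 2 of 4 tested (HA6 and HA9), SBs 0 of 4 and Ls 1 of 3. Over all probes, the share called was 29.2% of 35095 in An-LBs, 7.10% of 34773 in An-MBs and 4.13% of 33935 in SBs. In SBs limma called no member, and the methods' t-test called 0 as well. There 2 members had an unadjusted limma p under 0.05, which is not read further, as no share over all probes is given for that cut. Among the called members HA1 in An-LBs was higher with MES and the others lower, and 17.3% of all probes tested in An-LBs were called higher and 11.9% lower. The counts in Ls, An-MBs and An-LBs include the contrasts used for the listing, so no more is read from them. The median log2 difference over the members tested was -7.73 in An-LBs, beside 0.24 over all probes tested there, and -1.92 in An-MBs, beside -0.04. These medians include the contrasts of the listing too, so they are a description and show no effect on the family.

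Whether the MES effect differed between organs was tested for the 9 pairs of tissue and member in which neither tissue belonged to the listing, as interaction contrasts in a limma fit of all 24 arrays. The 3 contrasts of HA6 cannot be read as a difference between organs, because its mock-treated mean lay only 1.16 in Ls and 0.20 in SBs above the mean of the lowest signals well above background on the MES-treated arrays. A fall as large as that in An-MBs, where this distance was 4.54, could not have been measured there. For HA1 the effects in SBs and Ls differed by 1.41 ± 0.56 (SE), with an adjusted p of 0.162, where 3.78% of probes passed. That SE uses a spread shared by all 24 arrays, replicate 2 of MES-treated An-MBs included. Without that replicate the contrast passed in limma. A test with a separate spread in every group, chosen after seeing the data, gave an SE of 0.26 and an adjusted p of 0.116. The exact permutation test, two-sided, gave 0.005 for HA1, the smallest value that its 400 arrangements allow. It shuffles treatment labels within both tissues, so it tests for any MES effect and cannot decide whether the effects differ. None of the other 5 contrasts, of HA1 and HA3, passed in the limma fit of all 24 arrays, with adjusted p-values from 0.201 to 0.867. Of all probes, 12.4% passed in the contrast of An-MBs with Ls, 5.01% in that of An-MBs with SBs, 21.2% in that of An-LBs with SBs and 14.2% in that of An-LBs with An-MBs. The opposite signs of HA1 in An-LBs and Ls were not tested, because An-LBs belongs to the listing.

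In An-LBs, pollen markers were lower with MES, as the 3 anther members were. HA8 did not follow them in An-MBs, where no mock-treated array had it well above background. The mean log2 signal of 16 probes of pollen genes lay between 15.51 and 15.97 in mock-treated An-LBs and between 4.83 and 5.61 in MES-treated An-LBs. Among the genes were the pectin methylesterase genes VGD1 and PPME1. The probes were taken from the study's list of changed transcripts, so their fall is given as a description. All 16 were called lower in An-LBs, as were 11.9% of all probes tested there. Of the 16, 10 were well above background on none of the 3 MES-treated arrays. For An-MBs the mean was between 7.54 and 8.78 without MES and between 3.68 and 3.75 with it, and on leaf and SBs arrays it did not exceed 4.69. In mock-treated plants HA9 was at least 4.32 higher in SBs than in Ls on the log2 scale, whereas the pollen marker mean was between 3.68 and 4.13 in SBs and between 4.59 and 4.69 in Ls. Fewer pollen grains and less RNA per grain cannot be told apart in such bulk samples, and the part of the markers in the result was not tested.

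**Figure D3:**
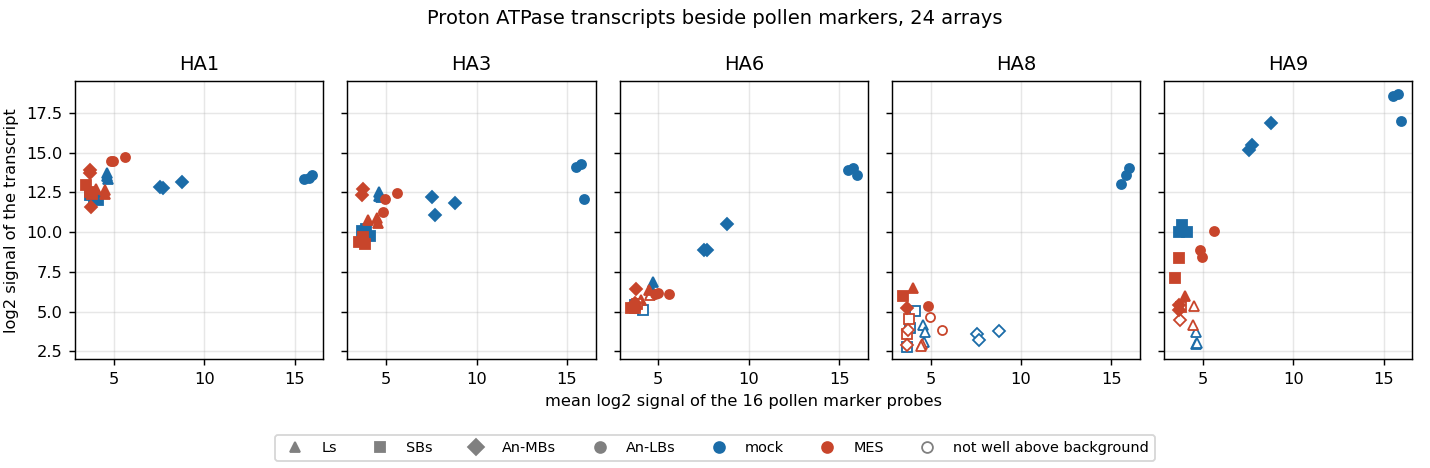
Log2 signal of each transcript (y axis) against the mean log2 signal of 16 pollen marker probes (x axis) on the 24 arrays, with a shape for each tissue and a colour for each treatment; open points were not well above background. HA6 and HA8 reach their highest signals on the 3 mock-treated An-LBs arrays, where the markers are at 15.51 to 15.97, whereas the HA9 points of mock-treated SBs lie above those of mock-treated Ls, with the marker mean at 3.68 to 4.13 in SBs and 4.59 to 4.69 in Ls.

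The tapetum marker LAP6, a polyketide synthase gene of pollen wall formation, was highest in mock-treated SBs, unlike the pollen markers. It was at 16.06, 16.24 and 15.19 in mock-treated SBs and at 6.01, 12.01 and 10.34 in MES-treated SBs. In these SBs, HA9, HA3 and LAP6 all had their lowest MES-treated value in replicate 1 and their highest in replicate 2. The other members differed, as HA1 and HA8 were highest in replicate 3 and HA6 in replicate 1. In An-LBs, LAP6 was lower with MES, in the same direction as the pollen markers. It lay between 7.70 and 8.73 in mock-treated An-LBs and between 3.75 and 4.43 in MES-treated An-LBs, where no array had it well above background. In mock-treated An-MBs LAP6 was at 11.51 in replicate 1 and at 4.80 and 3.91 in the others, so the replicates of that group were not alike in it. With MES the An-MBs were at 9.11, 5.95 and 9.44, a log2 difference of 1.43 upward. The groups overlapped there, and LAP6 was not called. Among the mock-treated An-MBs, HA6 and HA9 had their highest value in replicate 3, which also had the highest pollen marker mean, 8.78. HA1 was highest in replicate 3 too, at 13.16, whereas HA3 was highest in replicate 1, at 12.21. Photosynthesis probes, 21 in all, were also taken from the study's list of changed transcripts. Their means lay between 11.17 and 11.46 in mock-treated An-LBs and between 12.91 and 13.19 in MES-treated An-LBs, and HA1 moved in the same direction. Their part in the values of the pumps was not tested.

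Other transport genes were taken from the study's list of changed transcripts, so their counts are descriptions and no p-values are given. The 4 other ATP-driven pumps were all called lower in An-LBs, where 11.9% of all probes were. The probe of AT2G22950, a calcium pump of the P-type, went from 14.94 ± 0.35 to 8.15 ± 0.10 in An-LBs, or 111-fold, and from 11.44 ± 0.95 to 7.75 ± 0.16 in An-MBs, or 12.9-fold. ACA2, a calcium pump of endomembranes in Arabidopsis, went from 17.01 ± 0.08 to 12.77 ± 0.28 in An-LBs, or 18.9-fold. AT3G13900, a P-type ATPase, was 11.4-fold lower in An-LBs and 2.22-fold lower in SBs, a call lost with replicate number as a block. AT4G26710, a subunit of the vacuolar proton pump, was 3.73-fold lower in An-LBs. Outside An-LBs, 1 of the 4 was called lower in An-MBs, 1 in SBs and 0 in Ls, where 7.10%, 4.13% and 4.82% of all probes were called in either direction. The median log2 difference over the 4 was -3.88 in An-LBs, -0.93 in An-MBs, 0.15 in SBs and -0.27 in Ls.

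GRF6, a 14-3-3 protein of the class that binds the C-terminal region of the pumps, moved the other way. Its mean in An-LBs was 10.23 ± 0.18 with mock treatment and 11.99 ± 0.23 with MES, or 3.40-fold higher. Its log2 differences in the other tissues were 0.08 (Ls), 0.16 (SBs) and 0.57 (An-MBs), and it was not called there.

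The carriers grouped here as proton-coupled were divided, and whether each of them, ESL1 included, uses the proton gradient was not checked. Of 24 probes for 19 Arabidopsis identifiers, 23 were tested in An-LBs. With MES, 8 probes of 7 identifiers were called higher and 10 probes of 7 identifiers lower, 4 of these being probes of ATOPT1, where 17.3% of all probes were called higher and 11.9% lower. The median log2 difference was 0.10 over the 23 probes tested and -0.47 over all 24. Ordered by their mean signals, the 3 largest falls among called probes were those of AT5G02180, an amino acid carrier, which was at least 490-fold lower, of ATCHX8, a cation/H+ exchanger, at 501-fold with 1 of 3 MES-treated arrays well above background, and of ATCHX1, of the same family, at least 197-fold lower. Signals under the background limit set the third place, as chx28 was 332-fold lower with 1 of 3 MES-treated arrays well above background. The 3 largest rises in that order were those of the sugar carrier ESL1, 16.1-fold from 9.01 ± 0.19 to 13.02 ± 0.20, of the inositol carrier ATINT2, at least 2.80-fold, and of AT1G22570, of the nitrate and peptide carrier family, 5.94-fold from 8.96 ± 0.51 to 11.53 ± 0.24. The bound for ATINT2 is under the 4.80-fold rise of AT2G26690, measured on both sides, so its place is not settled. In SBs 6 probes of 5 carriers were called higher and 0 lower, where 1.81% of all probes were called higher. In An-MBs it was 2 higher and 0 lower, where 4.24% of all probes were called higher, and in Ls 0 higher and 4 lower, where 4.82% were called in either direction. With replicate number as a block, 3 of the 6 calls in SBs, 0 of the 2 in An-MBs and 3 of the 4 in Ls remained, and all 18 in An-LBs.

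**Figure D4:**
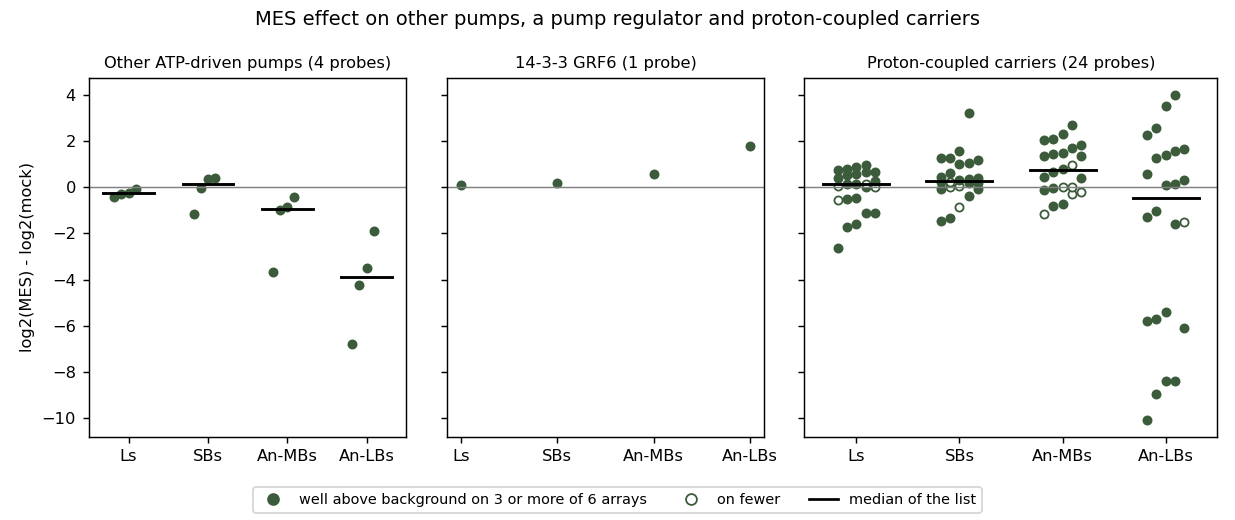
Log2 difference between MES-treated and mock-treated means (y axis) in the 4 tissues (x axis). Shown are the probes of 4 other ATP-driven pumps, the 14-3-3 protein GRF6 and 24 probes of carriers grouped as proton-coupled. Bars are list medians, and open points were well above background on fewer than 3 of 6 arrays. In An-LBs the pumps lie between -6.80 and -1.90, GRF6 at 1.76, and the carriers from -10.09 to 4.01.

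The profile of each member over the 24 arrays was set against those of the probes that the study had named, by Pearson's r, as a description, since the arrays form 8 groups of 3 that share slides. HA6 was most like ATPPME1 (r = 0.995), BGAL11 (0.988) and a probe annotated as RRN16S.1 (0.988), a chloroplast ribosomal RNA whose match to the probe was not checked here, and only 4 of all probes reached the third value. HA8 was most like AT5G18910 (0.972), the calcium-dependent kinase CPK24 (0.971) and AT3G62180 (0.966), again with 4 probes at or above the third. HA9 was most like AT2G25890 (0.954), AT4G10440 (0.942) and AT5G09550 (0.940), with 9. HA3 was most like FRD3 (0.854), CAM7 (0.832) and KUP5 (0.830), with 32. HA1 was most like AT1G33270 (0.942), SBP1 (0.856) and ATNUDT2 (0.851), with 59.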

How the data were processed

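The intensity of every spot was deposited as the authors' Feature Extraction output (version 9.1 per the labels, 10.7.3.1 per the file headers), with background subtracted and spatial trends removed within an array. The authors' table of log2 values, quantile normalized in GeneSpring, was deposited beside it. Here 1417 control spots were left out, spots of a probe were averaged (50 probes, up to 5 spots), and log2 signals were quantile normalized over 24 arrays. They differed from the authors' values by a median of 6.54e-07, and by at most 0.00164 for the 5 members. Spots with an outlier flag had weight 0, which touched no member, and no member was saturated. The median signal of an array ran from 377.5 to 1208 before normalization, and the number of arrays limits the precision.

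Each tissue was fitted alone with limma 3.58.1 in R 4.3.3 (lmFit, eBayes, two-sided), in place of the methods' t-test. Where no array of a group was well above background, a fold is a lower bound, written "at least": the dimmer arrays are set to the lowest signal well above background on them, or to the probe's own signal if higher, before the group means are compared. The members and lists were chosen with earlier results of these data known. The genes named are the 5 members, the other pumps, GRF6, LAP6, the 3 largest called rises and falls among carriers in An-LBs, and the 3 most alike named probes per member. Gene names are those of the study's tables, as 0 of 40632 array identifiers were in the RefSeq gene table.

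Same-numbered MES and mock arrays deviated together in Ls (r = 0.145, 0.252 and 0.429 across 27364 probes), so the number was taken to pair samples there. Only replicate 3 stood apart by this measure. MES replicate 1 had r = 0.153 with mock replicate 2, and MES replicate 2 had r = 0.212 with mock replicate 1, so the pairing of these is uncertain. Alternatives were another scaling, background correction or filter, the authors' table, other fits and tests, blocks for replicate or slide, and each array left out. The fits were tested on simulated data without slide or replicate effects and at a lower fold limit, so the calling rule itself was not tested.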

Additional observations from a re-analysis of the deposited data

Results flagged for a closer look

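For HA6 the MES effect in An-MBs minus that in Ls was -3.24 on the log2 scale, and that in An-MBs minus that in SBs was -3.73, both past the threshold in the limma fit of all 24 arrays. In Ls and SBs, HA6 of mock-treated plants was too near the background limit for such a fall to be measured, so these values do not show that the effect differed between organs. The MES effect on HA1 differed between SBs and Ls by 1.41 on the log2 scale, which did not pass limma's adjusted threshold. Without replicate 2 of MES-treated An-MBs, an array of neither tissue, it did pass. The exact permutation test of treatment labels within tissues gave 0.005, unadjusted. Its null is no MES effect in either tissue, so it cannot decide whether the effects differ. HA1 also moved in opposite directions in An-LBs and Ls, with every MES-treated array above the mock-treated ones in An-LBs and below them in Ls, a log2 difference between the effects of 2.05 that was not tested.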

How the results depend on the processing

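In Ls, where 1 member was called, the count was 2 with the shift to the 75th percentile, with quantile normalization within the tissue and without a fold limit, as HA1 joined HA3. It was 0 in the fit of all 24 arrays, with slide as a random block and by the methods' t-test after Benjamini-Hochberg adjustment. In SBs the count of 0 became 1, HA9, with normexp, in the fit of all 24 arrays and with slide as a random block. In An-MBs the count of 2 became 1 with all 6 arrays required above background (HA9 no longer tested) and by the methods' t-test with either threshold (HA6 lost). With 1 array left out, the counts ran from 0 to 2 in Ls, 0 to 1 in SBs, 1 to 2 in An-MBs and 4 to 5 in An-LBs. Without replicate 2 of mock-treated An-LBs, HA3 joined. Of the 9 differences between tissues, limma passed 2, both of HA6 and limited by background, from 2 to 5 with an array left out, and 0 when every group kept a separate spread, an alternative chosen after seeing the data, as were the omissions for the order of levels and for the pumps and carriers. The 5 came without replicate 2 of MES-treated An-MBs. They added SBs minus Ls and An-MBs minus Ls for HA1, and An-LBs minus An-MBs for HA3. With the replicate block the counts stayed at 1 in Ls, 0 in SBs and 2 in An-MBs and became 5 in An-LBs, where HA3 was called at an adjusted p of 0.0291. Same-numbered arrays did not all deviate together in SBs, An-MBs and An-LBs, with r from -0.234 to 0.390.

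HA6 in SBs, at 0.06, was -0.10 with the 75th percentile and -0.0069 with normexp, and ran from -0.017 to 0.14 with an array left out (below 0 without MES replicate 1 or mock replicate 2). In An-MBs, HA1 ran from -0.25 to 0.93 (below 0 without MES replicate 1 or 3), and HA3 from -0.77 to 0.82 (above 0 without MES replicate 2 or mock replicate 1). The causes were not tested. The count of members highest in mock-treated An-LBs was 4 in all settings, and 20 to 21 of the pumps and carriers were called in An-LBs with an array left out, against 22. Dim signal limits HA8 outside mock-treated An-LBs and HA9 in Ls.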
